A study of Mus musculus with 12 samples.

Results

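Colonic epithelium of mice lacking Nfkb2 was compared with that of wild-type (WT) mice, both left untreated. The samples were chosen by their titles, which place 3 Nfkb2 knockout (KO) and 3 WT samples in the untreated groups. These are 6 of the 12 samples of the series. The other 6 come from the same genotypes after 48 h of dextran sulfate sodium (DSS), a polysaccharide given to mice to injure the colonic lining, and are used here only for comparison. All mice were of the C57BL/6 strain and 7 to 9 weeks old. The KO carried the genotype Nfkb2-/-, and the labels name no promoter or cell type that would limit the loss to the epithelium. Intestinal epithelial cells were shaken off colon pieces in 30 mM EDTA, and the labels put their purity, as cells with EpCAM but no CD45.2 on the surface, at about 90%. RNA was read by SMART-seq2, which copies polyadenylated RNA and amplifies it by PCR. Nothing in the labels says that the replicates came from separate mice, so p-values measure the spread between these samples, which may be technical.

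NF-kB is a family of transcription factors that act as pairs of the subunits RelA, RelB, c-Rel, p50 and p52. In the canonical pathway, inflammatory signals lead to the breakdown of inhibitors such as IκBα, which frees RelA-p50 to enter the nucleus and switch on cytokines, chemokines, adhesion molecules and its own inhibitors. Nfkb2 encodes p100, which is both the precursor of p52, the partner of RelB in the noncanonical pathway, and an inhibitor that holds other subunits in the cytoplasm. The colonic epithelium is a single layer of absorptive colonocytes, mucus-secreting goblet cells and rarer cell types, renewed from stem cells in the crypts.

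The 3 WT libraries held 7743079, 6493708 and 6323781 counts and the 3 KO libraries 7246017, 8117740 and 8084565. Levels are given as CPM, a gene's count scaled to the TMM-adjusted size of its library, in the order of replicates 1, 2 and 3. Differences are log2 fold changes, KO minus WT, with their standard error (SE), from edgeR's quasi-likelihood test, with 0.05 as the limit on p after Benjamini-Hochberg adjustment, below which a gene is said to have passed. The first principal component of the 6 libraries held 33.6% of the variance and separated the genotypes. The second held 24.6% and spread the WT libraries, from 43.7 for WT 1 through 8.15 for WT 2 to -45.6 for WT 3, while the KO libraries lay between -16 and 14.5. WT 1 and WT 3 thus lay on opposite sides of the KO libraries. In the labels all untreated WT libraries were numbered before all untreated KO libraries, so library order and genotype cannot be told apart.

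Nfkb2 itself was lower in the KO but was not absent from it. Nfkb2 (ENSMUSG00000025225.13, GRCm38 chr19:46304320-46312385, plus strand) stood at 30.8, 36.1 and 43.7 CPM in WT and at 11.7, 17.5 and 13.9 CPM in KO. The groups did not overlap, and the KO mean was 38.9% of the WT mean. The log2 fold change was -1.36 (SE 0.20, adjusted p = 0.00123). A two-sided exact permutation test gave p = 0.1, the smallest that 3 against 3 samples allow. The exons of Nfkb2 overlap those of Psd and AC114539.1, so reads there cannot be assigned to 1 gene without strand, and gene-level counts do not show which exons the remaining reads cover. Among the other subunits, Relb, which pairs with p52, had 38, 40.4 and 36.2 CPM in WT and 48.5, 59 and 54.5 CPM in KO, and did not pass (log2 fold change 0.50, SE 0.14, adjusted p = 0.0682). Its 2 groups did not overlap, as in 19.3% of all tested genes. Differences were -0.17 for Nfkb1 (SE 0.28, adjusted p = 0.866), 0.04 for Rela (SE 0.23, adjusted p = 0.968) and 0.14 for Rel (SE 0.35, adjusted p = 0.922). Of the 31 listed kinases, adaptors and receptors of the canonical and noncanonical pathways, 30 were tested and 0 passed in edgeR's test, with 2 at an unadjusted p under 0.05. The smallest p was that of Birc3, an inhibitor of apoptosis and brake on the noncanonical kinase, with 78.4, 97.9 and 62.9 CPM in WT and 116, 114 and 101 CPM in KO (0.46, adjusted p = 0.104).

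Genes near Nfkb2 included 2 that were lower in the KO. The 3 nearest tested genes on each side of Nfkb2 (Pprc1, Nolc1 and Gbf1 before it, Psd, Fbxl15 and Cuedc2 after it) did not pass, with log2 fold changes from -0.60 for Psd to 0.41 for Pprc1. Within 1.5 Mb, 3 of 46 tested genes passed (6.52%), and within 10 Mb 9 of 135 (6.67%), against 3.48% of all tested genes. The 3 genes within 1.5 Mb were named after their values were seen. Pdzd7, which encodes a PDZ-domain scaffold protein and lies at -1.277 Mb from Nfkb2, had 95, 111 and 100 counts in WT and 0 in each KO library. That is at least 42.2-fold lower in KO, taking 3 counts per library as the floor. It was at 0 in the 3 KO libraries under DSS as well, where WT had 8.96, 7.07 and 10.4 CPM. Sfxn3, a mitochondrial serine transporter at -1.257 Mb, fell from 41, 50.4 and 46.2 CPM in WT to 15.2, 14.8 and 13.4 CPM in KO (log2 fold change -1.66, SE 0.16, adjusted p = 2.43e-05). 2310034G01Rik, 0.044 Mb after the start of Nfkb2, rose by 1.72 on the log2 scale (SE 0.28, adjusted p = 0.0028). Pdzd7 overlaps Lzts2, so its counts in WT could include reads of that gene. In KO, Lzts2 had 46.2, 26.1 and 51.3 CPM while Pdzd7 had 0 counts, so no Lzts2 read was counted for Pdzd7 there.

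Across the 12522 genes tested, 436 passed (3.48%), of which 215 were higher in KO (1.72%) and 221 lower (1.76%). The median log2 fold change over all tested genes was -0.0015. Among the 436, 204 differed by over 2-fold, most of them higher (81 were lower). All 436 had groups that did not overlap, as had 19.3% of all tested genes. The genes that rose had a median level of 4.07 log2 CPM and those that fell 6.52, against 4.43 for all tested genes. The plot of all genes by level shows this split: higher genes are spread over the low levels, and lower genes include many of the most abundant ones. Leaving out WT 3 gave 725 genes, and leaving out any other library gave 212 to 329. A fit to the 6 untreated libraries alone (the untreated fit) passed 195 genes. For many gene lists counts are given also without WT 3, whose omission moved the total most, and in the untreated fit. In that fit 51 calls of genes named here were lost, 11 of which no single left-out library ended. The 11 were Cd69 (adjusted p = 0.0501), Car2 (0.0521), Tagap (0.0541), Ifi44 (0.0577), Dusp6 (0.0586), Nr4a1 (0.0602), Itgb2 (0.0616), Cxcl10 (0.0618), Me1 (0.0618), Nox1 (0.0677) and Lrg1 (0.116).

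**Figure D1:**
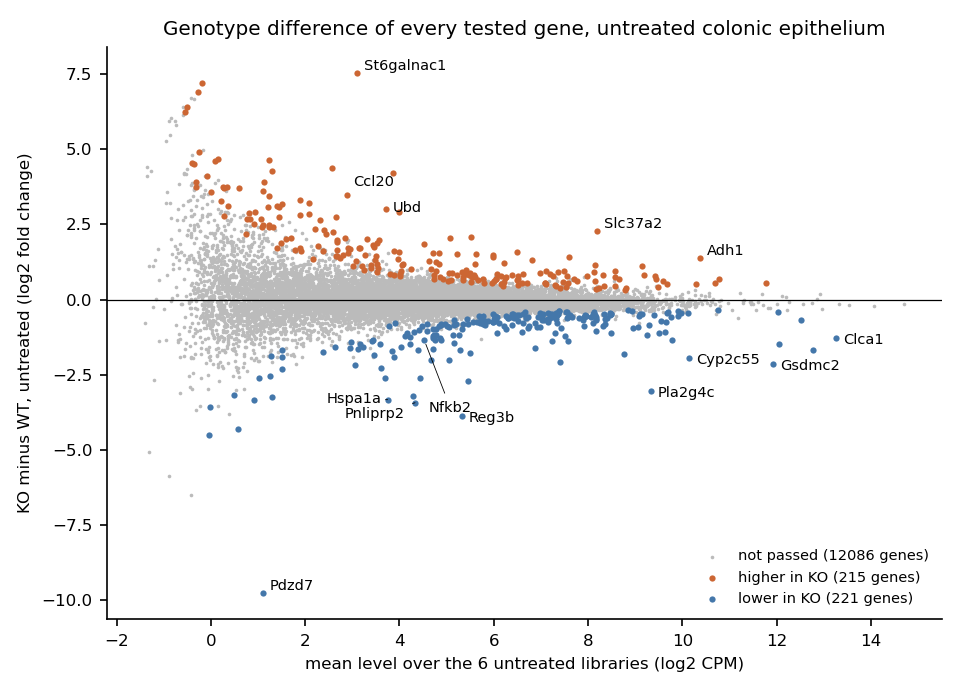
Mean level of each of the 12522 tested genes over the 6 untreated libraries (log2 CPM) against its difference between genotypes (log2 fold change, KO minus WT). Orange points are the 215 genes higher in KO, blue points the 221 lower and grey points those that did not pass; Pdzd7, at 0 in every KO library, has a fitted value that is no bound.

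Among genes with a mean level of at least 3 log2 CPM, leaving out predicted genes with Gm or Rik symbols, the largest increase was in St6galnac1, a sialyltransferase that caps mucin sugar chains. It had 0, 0 and 13 counts in the WT libraries, or 0, 0 and 2.01 CPM, and 131, 128 and 127 CPM in KO (log2 fold change 7.55, SE 0.53, adjusted p = 6.01e-06). Under DSS it was at 0 in all 3 WT libraries and at 138, 145 and 111 CPM in KO. Gm11735, named after its values were seen, shares 34.9% of the 50-base words of St6galnac1 and was also higher in KO, at 57.9, 73.2 and 64.5 CPM against 1.46, 2.62 and 6.49 CPM. Reads of these genes could have been exchanged or dropped in counting. Without WT 3 the difference of Gm11735 was 5.00 in place of 4.21, and St6galnac1 was at 0 in the WT libraries left.

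Slc37a2, a sugar-phosphate exchanger, rose from 148, 140.4 and 106 CPM to 678, 660.3 and 599.6 CPM (log2 fold change 2.30, SE 0.12, adjusted p = 2.08e-07). Fbxo32, a ubiquitin ligase subunit known from muscle wasting, rose from 19.7, 24 and 23.2 to 85.6, 95.7 and 98.7 CPM (2.07, SE 0.14, adjusted p = 1.06e-06). Best2, a channel of colonic goblet cells that conducts chloride and bicarbonate, rose from 18.9, 17.1 and 13 to 75.8, 69.3 and 59.5 CPM (2.06, SE 0.17, adjusted p = 8.34e-06). In these 3 genes every KO library was far above the highest WT library. The other genes with the largest increases were Ubd, Rgs1, Tagap, Slc27a2, Nos2, Cttnbp2, Slc7a8 and Abcc4, with log2 fold changes from 1.74 for Abcc4 to 3.00 for Ubd. Cttnbp2 and Abcc4 were already uneven in WT, with 7.87, 6.23 and 25.5 CPM and 2.19, 5.91 and 11 CPM. Slc37a2, Fbxo32, Slc27a2 and Tagap overlap other annotated genes, and 47.6% of the words of Tagap occur in Tagap1. Calls were lost, by adjusted p, for Abcc4 without WT 2, KO 1, KO 2 or KO 3 (up to 0.1), Cttnbp2 without WT 1, WT 2, KO 1 or KO 2 (up to 0.0598). Without WT 3 the differences of Cttnbp2 and Abcc4 were 2.76 and 2.40, and without WT 1 that of Tagap was 2.73.

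The largest decrease by the same rule was in Reg3b, a secreted lectin that kills bacteria, with 81.3, 75.6 and 374 CPM in WT and 9.56, 14.9 and 11.6 CPM in KO (log2 fold change -3.87, SE 0.52, adjusted p = 0.000566). WT 3 was the highest library by far, and without it the difference was -2.70, smaller than those of the next 3 genes. Pnliprp2, a pancreatic-type lipase, fell from 90.9, 65.3 and 46 to 7.27, 7.69 and 3.68 CPM (-3.44, SE 0.36, adjusted p = 5.91e-05). The markers of pancreatic acinar cells Pnlip and Prss2 had 0 counts in all 6 libraries and 0 to 1 count. Hspa1a, the inducible chaperone HSP70, fell from 38.9, 40.2 and 45.6 to 4.71, 4.52 and 3.09 CPM (-3.34, SE 0.21, adjusted p = 9.91e-07), and it shares 60.3% of its words with Hspa1b and Hspa1l. Pla2g4c, a cytosolic phospholipase that frees fatty acids from membrane lipids, fell from 2339.9, 1959.6 and 1339 to 241, 228 and 215 CPM (-3.04, SE 0.17, adjusted p = 2.08e-07). In all 4 genes the groups were well apart. Further decreases were in Gsdmcl-ps, Fn1, Slc30a10, Slc51a, Fbln1, Gsdmc2 and Ang4, from -2.08 for Ang4 to -2.70 for Gsdmcl-ps. Among these, Slc30a10, a manganese exporter, and Slc51a, a subunit of the bile acid exporter, were uneven in WT, at 16, 30.4 and 53.5 and 18.2, 21.2 and 42.5 CPM. The call of Fbln1 was lost by adjusted p when libraries were left out, namely for Fbln1 without WT 3, KO 1 or KO 3 (up to 0.117). Without KO 1 the difference of Fn1 was -3.27.

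Of the 4 lists of inhibitors, cytokines, chemokines and other targets of NF-kB, 13 tested genes were higher in untreated KO epithelium, 1 was lower and 44 did not pass. Among all tested genes 1.72% were higher and 1.76% lower. Of the 29 listed inflammatory cytokines 13 were expressed enough to be tested, and Tnf and Ltb rose. Tnf, the central inducer of canonical NF-kB signaling, went from 3.64, 4.1 and 2.47 CPM in WT to 11.6, 15 and 15.9 CPM in KO (log2 fold change 2.05, SE 0.25, adjusted p = 0.000254). Ltb, which encodes lymphotoxin beta, a ligand of the noncanonical pathway made chiefly by lymphocytes, went from 0.146, 0.328 and 0.155 CPM to 3.5, 2.32 and 3.21 CPM (3.75, SE 0.66, adjusted p = 0.005). The median of the 13 tested cytokines was 0.34. Both also passed without WT 3 and in the untreated fit.

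Of 27 listed chemokines 16 were tested and 5 rose, with a median of 0.86. Ccl20, which draws lymphocytes and dendritic cells through CCR6, rose from 1.89, 2.79 and 1.55 CPM to 21.9, 28.4 and 19.7 CPM (3.49, SE 0.28, adjusted p = 5.09e-06). Cxcl1, a neutrophil attractant, rose from 1.02, 0.984 and 1.08 CPM to 8.75, 13.2 and 8.91 CPM (3.30, SE 0.32, adjusted p = 2.43e-05). Both were low in each WT library and far higher in each KO library. Cxcl10 and Cxcl9, which attract T cells through CXCR3, rose from 1.75, 0.82 and 3.55 to 7.14, 10.6 and 13.7 CPM (2.35, SE 0.41, adjusted p = 0.00483) and from 1.46, 1.97 and 0.618 to 4.31, 5.61 and 3.33 CPM (1.70, SE 0.44, adjusted p = 0.0489). Ccl6 rose from 134, 112 and 83.3 to 178, 214 and 201 CPM (0.85, SE 0.15, adjusted p = 0.005). Exons of Cxcl10 overlap Art3. The call was lost for Cxcl9 without any 1 library (up to 0.166), by adjusted p. The 5 chemokine calls were 4 without WT 3, where Cxcl10 differed by 2.99, and 3 in the untreated fit.

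Of 26 adhesion molecules and enzymes among NF-kB targets 15 were tested, 4 rose and 1 fell. Icam1, an adhesion molecule for leukocytes, rose from 0.874, 2.46 and 2.32 CPM to 12, 11.7 and 12.1 CPM (2.67, SE 0.34, adjusted p = 0.000348). Nos2, the inducible nitric oxide synthase, rose from 4.96, 4.92 and 7.73 to 20.6, 23.8 and 20.8 CPM (1.89, SE 0.22, adjusted p = 0.00017). Nox1, the colonic NADPH oxidase, rose from 70.5, 40.4 and 111 to 189.7, 191 and 174 CPM (1.32, SE 0.24, adjusted p = 0.00694). Cybb, the NADPH oxidase of phagocytes, rose by 2.80 (SE 0.72, adjusted p = 0.0469) from low levels, with 0.146, 0.984 and 0 CPM in WT. Pla2g2a, a secreted phospholipase that acts on bacteria, fell from 12.5, 12.5 and 3.71 to 2.56, 3.42 and 2.61 CPM (-1.73, SE 0.39, adjusted p = 0.0229), and WT 3 lay near the KO libraries. Among 14 inhibitors and feedback genes, all tested, 2 rose. Nfkbia, which encodes IκBα and is induced by the factor it inhibits, rose from 138, 128 and 125 to 235, 258 and 259 CPM (0.94, SE 0.11, adjusted p = 0.000134). Tnip1, a partner of the A20 deubiquitinase, rose by 0.60 (SE 0.15, adjusted p = 0.0457). Without 1 library, the adjusted p rose past the limit for Cybb without WT 1, WT 3, KO 1 or KO 3 (up to 0.145), Pla2g2a without WT 1, WT 2, KO 1, KO 2 or KO 3 (up to 0.1), Tnip1 without WT 2, WT 3, KO 1, KO 2 or KO 3 (up to 0.181). Higher and lower adhesion and enzyme genes numbered 3 and 1 without WT 3 and 2 and 0 in the untreated fit, and inhibitors 1 and 2 and 1 and 0. Without WT 2 the difference of Cybb was 4.84. Nox1 overlaps Cstf2, and Icam1 overlaps Gm47079.

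**Figure D2:**
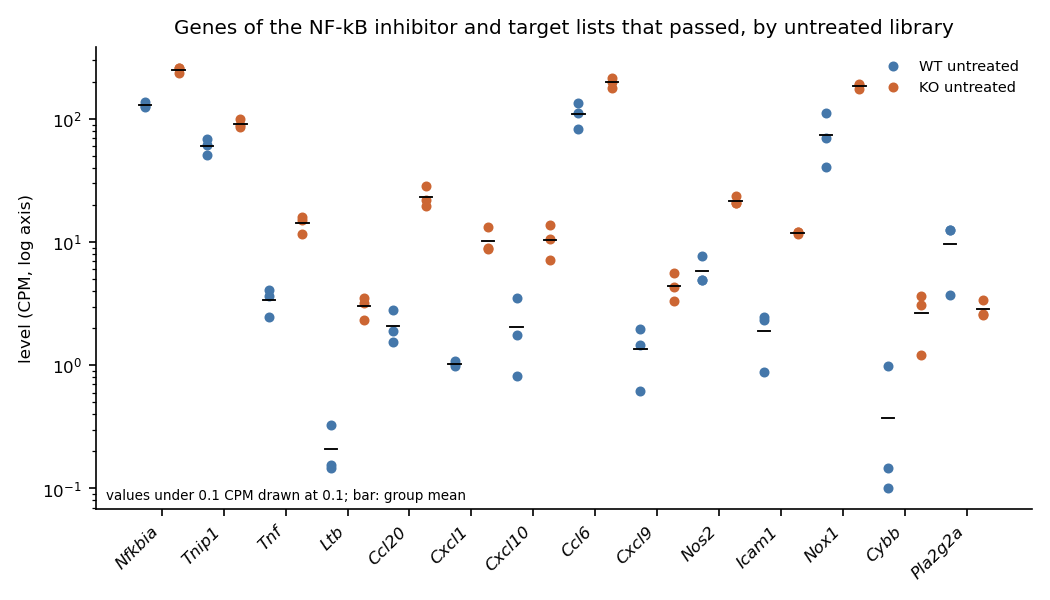
Levels of the 14 genes of the NF-kB inhibitor, cytokine, chemokine, adhesion and enzyme lists that passed (CPM, log axis), 1 point per library, blue for the 3 untreated WT and orange for the 3 untreated KO libraries, with bars at group means. In every gene but Pla2g2a the KO points lie above the WT points, and no gene that passed had overlapping groups.

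The promoters of these genes were searched for the κB motif on both strands, in the 300 bases from 250 before to 50 after the start in RefSeq's table for GRCm38.p6. Of the 13 inhibitor, cytokine, chemokine and enzyme genes that rose, 12 were in that table and 7 held a match (58.3%). Of the 44 tested genes of the same lists that did not pass, 36 were in the table and 11 held one (30.6%), against 6.17% of all tested genes in the table and 5.14% of all its genes. These lists were made of known NF-kB targets, so matches are a description of the promoters. The 150 bases before the start of 3 of them, whose levels differed clearly, are shown with the matches in capitals. They lie at chr1:83116616-83116765 (plus strand, Ccl20), chr5:90891095-90891244 (plus strand, Cxcl1) and chr12:55492648-55492797 (minus strand, Nfkbia).
Ccl20: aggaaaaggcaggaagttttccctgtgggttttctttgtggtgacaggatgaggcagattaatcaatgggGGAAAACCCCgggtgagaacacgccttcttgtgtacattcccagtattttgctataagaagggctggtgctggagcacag
Cxcl1: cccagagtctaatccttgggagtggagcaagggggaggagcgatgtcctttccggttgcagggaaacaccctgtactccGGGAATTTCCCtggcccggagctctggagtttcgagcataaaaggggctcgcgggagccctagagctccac
Nfkbia: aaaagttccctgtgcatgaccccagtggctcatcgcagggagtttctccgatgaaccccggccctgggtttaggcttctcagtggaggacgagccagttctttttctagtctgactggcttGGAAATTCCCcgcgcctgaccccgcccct
In Cxcl1 a pair of overlapping matches, 1 on each strand, begins 71 bases before the start, and the match of Nfkbia, nearest to its start, begins 29 bases before it.

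Leukocyte markers were also higher in the KO libraries. In bulk samples, fewer cells of a type and less RNA per cell cannot be told apart. Of 20 markers shared by leukocytes 19 were tested and 9 rose, with a median log2 fold change of 1.57, while 1.72% of all tested genes rose. Their summed level was 72.5 to 96.9 CPM in WT and 184 to 214 CPM in KO. Ptprc, which encodes CD45, the surface marker of leukocytes used in the study's purity check, had 11.8, 9.19 and 6.95 CPM in WT and 40, 22 and 21.4 CPM in KO (1.57, SE 0.28, adjusted p = 0.00607). Coro1a, Cd53, Itgb2 and Laptm5 rose by 2.76, 3.18, 3.09 and 1.70 on the log2 scale. Of 29 markers of T cells and intraepithelial lymphocytes 25 were tested and 9 rose, with sums of 56.6 to 81 CPM in WT and 185 to 213 CPM in KO. Rgs1, a signaling regulator of resident lymphocytes, rose from 7, 5.91 and 4.17 to 45.4, 43 and 41.3 CPM (2.92, SE 0.27, adjusted p = 1.79e-05). Cd7, Cd69, Cd3e and Klrd1 rose by 3.44, 1.90, 2.68 and 3.29, from means of at most 3.25 CPM in WT. Cd3e had 2 to 4 counts per WT library and 19 to 34 per KO library. Without WT 3, 7 shared leukocyte markers and 4 T cell markers rose, and in the untreated fit 4 and 3. The difference of Itgb2 was 4.29 without WT 2, and those of Coro1a and Klrd1 were 3.41 and 3.92 without WT 1.

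Markers of macrophages and dendritic cells gave 3 increases among 15 tested of 25 (Cd14, Lyz2 and Cybb), of B and plasma cells 2 among 5 tested of 20 (Cd74 and Ighm), and of neutrophils 0 among 4 tested of 14 in edgeR's test, with 0 at an unadjusted p under 0.05. Of all tested genes 1.72% rose. The 5 tested B and plasma cell markers had 3 negative differences and a median of -1.01. The neutrophil marker with the smallest p, Ly6g, had 53.9, 57.1 and 15.9 CPM in WT and 42.8, 67.4 and 49.3 CPM in KO. Igha, the heavy chain of the gut's antibody, was named after its values were seen: it had 33.7, 28.4 and 6.95 CPM in WT and 4.58, 5.61 and 7.96 CPM in KO, so WT 3 resembled the KO, and did not pass (-1.92, SE 0.50, adjusted p = 0.05004). It passed as lower without WT 3 (-2.35, adjusted p = 0.00292) and with the leukocyte covariate described next (-5.60, adjusted p = 0.0201). With the mean log2 CPM of the leukocyte markers as a covariate, which did not overlap between the untreated genotypes, 75 genes passed, 38 of them among the 436. Under it 0 listed cytokines, 0 chemokines and 0 of the 14 inhibitors passed, and of the genes in the plot of NF-kB targets Nox1 alone did (log2 fold change 2.96, adjusted p = 0.0275). The differences of Cxcl1, Cxcl10, Ccl20, Icam1 and Nos2 under it were 4.14, 4.49, 3.00, 3.31 and 2.74, with adjusted p = 0.0683, 0.083, 0.121, 0.151 and 0.0586, and those of Tnf and Nfkbia were 1.18 and 0.61 (adjusted p = 0.461 and 0.338). Nfkb2 itself did not pass under it (-0.66, adjusted p = 0.594). The part of leukocyte RNA in these increases was not tested further. Some calls hung on single libraries, with the highest adjusted p in brackets: Laptm5 without WT 2 or KO 2 (up to 0.0544), Cd3e without KO 2 (0.0506), Klrd1 without WT 2, WT 3, KO 2 or KO 3 (up to 0.114), Lyz2 without KO 3 (0.0504), Ighm without WT 2 or KO 1 (up to 0.0758). Without WT 1 the difference of Ighm was 6.33. Of the macrophage and dendritic cell markers 2 rose without WT 3 and 1 in the untreated fit, and of the B and plasma cell markers 2 rose and 2 fell without WT 3.

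Genes induced by type I interferon, the antiviral cytokine, were lower in untreated KO epithelium. All 40 listed genes were tested, 11 fell (27.5%), 0 rose, 36 had negative log2 fold changes and the median was -0.35. Among all tested genes 1.76% fell. Irf7, the factor that amplifies interferon production, fell from 678, 672 and 634 CPM to 476, 432 and 434 CPM (log2 fold change -0.56, SE 0.08, adjusted p = 0.0014). Oas1g and Oas3, enzymes that sense double-stranded RNA, fell from 239, 253 and 208 to 152, 156 and 153 CPM (-0.60, SE 0.10, adjusted p = 0.00267) and from 325, 319 and 258 to 203, 179 and 176 CPM (-0.69, SE 0.13, adjusted p = 0.00667). The decreases of Irf7, Oas1g and Oas3 were under 2-fold. Their KO libraries lay below all WT libraries, as for every lower gene that passed. Mx2, an antiviral GTPase, fell from 17.1, 19.5 and 13.9 to 6.46, 7.45 and 5.58 CPM (-1.37, SE 0.24, adjusted p = 0.00493). Ifi44 fell from 185, 188 and 162 to 102, 131 and 109 CPM (-0.64, SE 0.12, adjusted p = 0.00667). Zbp1, a sensor of nucleic acids, fell by 0.47 on the log2 scale (adjusted p = 0.0255). Without WT 3, 15 of the 40 passed, all lower, in the untreated fit 4, all lower, and with the leukocyte covariate 0 passed while the median was -0.65. Reads of Oas1g could be shared with Oas1a and Oas1b, in which 45.7% of its words occur. The call was lost for Zbp1 without WT 1, WT 2, KO 1, KO 2 or KO 3 (up to 0.0954), by adjusted p.

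The interferon-stimulated response element, searched as GAAANNGAAA on both strands in the same windows, was found in 6 of the 8 lower genes with a promoter in the table (75%) and in 9 of the 19 that did not pass (47.4%), against 3.93% of all tested genes and 3.99% of all genes in the table. This list was made of genes known to respond to interferon, so matches are a description of the promoters. Oas1a and Oas1g, which share words, are both among the 6 genes. The 150 bases before the start are shown for Oas3 (chr5:120777660-120777809, minus strand) and Oas1g (chr5:120887614-120887763, minus strand), with matches in capitals.
Oas3: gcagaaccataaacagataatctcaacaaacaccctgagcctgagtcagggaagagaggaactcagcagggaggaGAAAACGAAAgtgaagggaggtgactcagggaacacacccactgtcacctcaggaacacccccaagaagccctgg
Oas1g: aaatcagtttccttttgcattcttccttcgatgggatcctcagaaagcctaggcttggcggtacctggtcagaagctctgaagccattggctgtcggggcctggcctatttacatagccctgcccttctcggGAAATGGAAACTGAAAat
In Oas1g a pair of overlapping matches begins 18 bases before the start.

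Genes of antigen presentation by MHC class II, which shows peptides to helper T cells and is inducible in the colonic epithelium, were higher in the KO. Of 14 listed genes 11 were tested and 6 rose, with a median of 0.68, while 1.72% of all tested genes rose. H2-Ab1 and H2-Aa, the beta and alpha chains of the class II molecule, rose from 499, 453 and 607 to 854, 973 and 878 CPM (0.79, SE 0.13, adjusted p = 0.00286) and from 483, 421 and 430.2 to 655, 893 and 777 CPM (0.80, SE 0.13, adjusted p = 0.00334). Cd74, the invariant chain that escorts them, rose from 1282, 1214 and 1715 to 2305, 2239 and 2221 CPM (0.68, SE 0.12, adjusted p = 0.00564). The groups did not overlap in any of these, as in every gene that passed. H2-DMa, which helps to load peptides, and H2-Eb1 rose by 0.86 (SE 0.14, adjusted p = 0.00248) and 0.79 (SE 0.14, adjusted p = 0.00587). All 6 passed without WT 3 and in the fit to the untreated libraries alone, and with the leukocyte covariate 2 passed, H2-Ab1 (1.63, adjusted p = 0.0196) and Cd74 (1.68, adjusted p = 0.00227). None of the 25 class I and immunoproteasome genes passed in edgeR's test, 7 having an unadjusted p under 0.05, and their median was -0.097. H2-Q2, a class I gene of the Qa region, had the smallest p (-0.39, adjusted p = 0.0682), and without WT 3 it passed (-0.47, adjusted p = 0.0231), 1 of 2 class I and immunoproteasome genes that then fell. Leukocytes, whose markers rose too, also express class II genes, and their part was not tested further.

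Among 28 tested genes inducible by interferon gamma, 3 rose and 2 fell, with a median of -0.039. The shares over all tested genes were 1.72% and 1.76%. Ubd, a ubiquitin-like modifier, rose from 4.81, 4.76 and 3.86 to 31, 42.6 and 34.2 CPM (3.00, SE 0.25, adjusted p = 6.83e-06). Gbp2, a guanylate-binding protein, rose from 107, 77.8 and 97 to 182, 175 and 158 CPM (0.87, SE 0.13, adjusted p = 0.00139). Ido1, which degrades tryptophan, rose from 3.79, 5.09 and 7.26 to 12.1, 11.8 and 10.9 CPM (1.11, SE 0.27, adjusted p = 0.0323). The decreases were in Zbp1 and in Irf8, an interferon regulatory factor (-0.39, adjusted p = 0.0458). Calls were lost, by adjusted p, for Ido1 without WT 1, WT 2, KO 1, KO 2 or KO 3 (up to 0.12), Irf8 without WT 1, WT 2, WT 3, KO 2 or KO 3 (up to 0.193). The higher and lower genes of this list numbered 4 and 1 without WT 3 and 2 and 0 in the untreated fit.

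**Figure D3:**
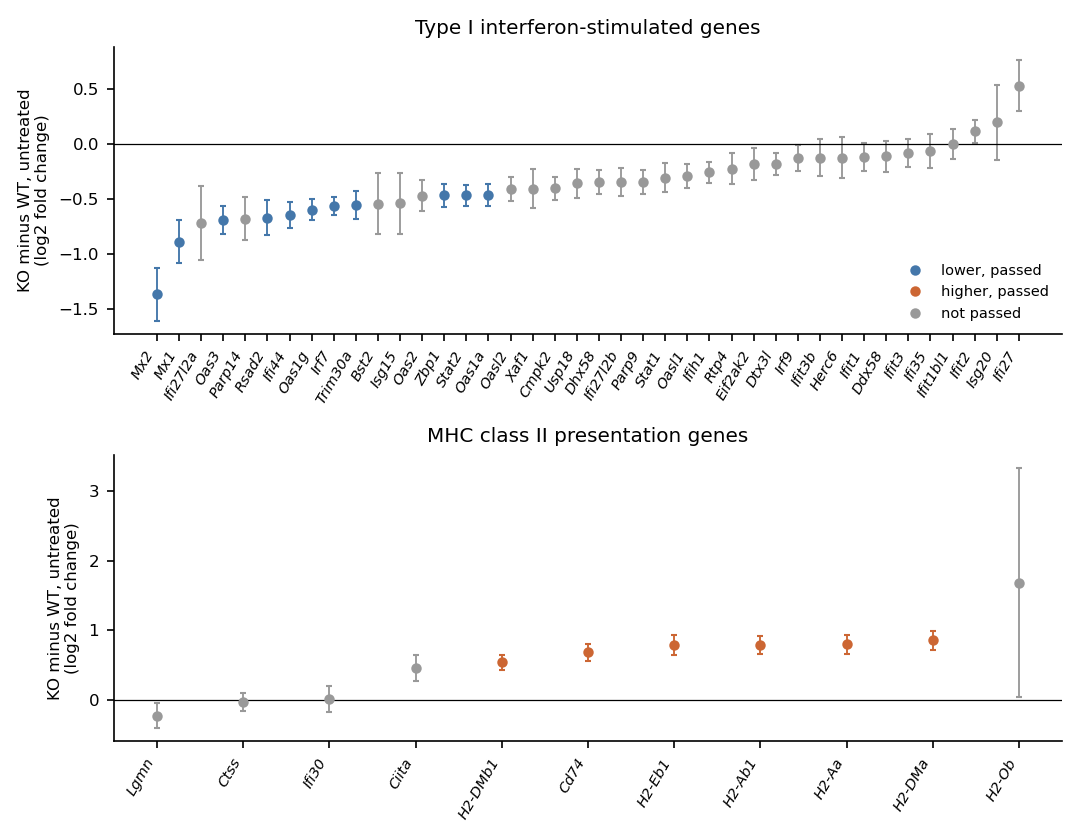
Difference between genotypes (log2 fold change, KO minus WT, untreated) with its standard error for all 40 type I interferon-stimulated genes (top) and the 11 tested MHC class II genes (bottom). Of the former 11 passed, all lower (blue), and of the latter 6 passed, all higher (orange).

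Secreted antimicrobial proteins fell in 10 of 19 tested cases and rose in 3, with a median of -0.93, while 28 were listed. Among all tested genes 1.76% fell and 1.72% rose. Itln1, a lectin that binds microbial sugars, fell from 70.4, 49.1 and 35.4 to 12.8, 12.8 and 13 CPM (log2 fold change -2.0, SE 0.24, adjusted p = 0.000246). Ang4, a bactericidal ribonuclease, fell from 513, 408 and 175 to 65.4, 97 and 96.6 CPM (-2.08, SE 0.30, adjusted p = 0.00111). Retnlb, a goblet cell protein that acts on bacteria and worms, fell from 101, 79.7 and 32 to 12.7, 18.1 and 21.4 CPM (-2.02, SE 0.33, adjusted p = 0.00329). In these genes WT 3 was the lowest WT library, and it was above each KO library, as for every lower gene that passed. Reg4, a lectin of the crypt base, fell from 1335, 991 and 545 to 361, 475 and 422 CPM (-1.19, SE 0.23, adjusted p = 0.0105). Sprr2a2 fell by 1.12 on the log2 scale (SE 0.16, adjusted p = 0.00115), but 96.5% of its words occur in neighbouring Sprr2a copies, so these cannot be counted apart. Lyz2 and Nos2 were among the 3 that rose. Without WT 3 the counts were 10 lower and 2 higher, in the untreated fit 5 lower and 1 higher, and with the leukocyte covariate 6 lower and 0 higher. The call of Reg4 was lost by adjusted p for Reg4 without KO 1 or KO 3 (up to 0.0632).

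Goblet cell markers, all 20 tested, fell in 4 cases and rose in 2, and their summed level was 19323 to 30682 CPM in WT and 14368 to 15706 CPM in KO. A large part of that sum was Clca1. Of the 20 markers 11 had negative and 9 positive differences, with a median of -0.29. The shares of all tested genes that fell and rose were 1.76% and 1.72%. Clca1, a metalloprotease of the mucus layer, had 19686, 16423 and 10415 CPM in WT and 6607, 6534 and 5974 CPM in KO (-1.28, SE 0.16, adjusted p = 0.000264). Muc2, the gel-forming mucin itself, fell from 4797, 5539 and 4191 to 3409.9, 3569 and 3874 CPM (-0.42, SE 0.10, adjusted p = 0.0281). The same list contained an increase in Atoh1, the factor that commits cells to the secretory lineage, from 48.7, 55 and 53.3 to 77.4, 94.6 and 79.4 CPM (0.68, SE 0.13, adjusted p = 0.00667). Markers of the lineage thus did not move together. Of 5 tested markers of deep crypt secretory cells, Reg4 and Ang4 fell. Of these 5, 3 fell without WT 3 and 1 in the untreated fit. The calls were lost by adjusted p for Muc2 without WT 2, KO 1, KO 2 or KO 3 (up to 0.127), Reg4 without KO 1 or KO 3 (up to 0.0632). Muc2 was named after its values were seen.

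Members of the gasdermin C family, pore-forming proteins of the colonic epithelium, fell strongly from high levels. Gsdmc2 had 9985, 9169 and 5622 CPM in WT and 1741, 1979 and 1922 CPM in KO (-2.13, SE 0.16, adjusted p = 2.87e-06). Gsdmc4 had 16873, 13439 and 7958 CPM in WT and 3746, 4279 and 3959 CPM in KO (-1.68, SE 0.19, adjusted p = 9.89e-05). Gsdmc3 fell from 1667, 1529.5 and 1062 to 509, 584 and 559.9 CPM (-1.36, SE 0.14, adjusted p = 3.64e-05), and the related pseudogene Gsdmcl-ps fell from 131, 132 and 73.1 to 19, 16.6 and 16.2 CPM. All 4 were lower in each KO library than in each WT library, as was every lower gene that passed. The copies share 32.1% to 51.3% of their words, so the split of reads among them is uncertain. Gsdmc2, Gsdmc3 and Gsdmc4 also passed with the leukocyte covariate, with differences of -3.42, -2.34 and -3.20. Of the 27 tested genes of cell death, Pmaip1, a pro-apoptotic protein also called Noxa, rose by 0.77 (SE 0.14, adjusted p = 0.005), and Zbp1 was the fourth to fall. The share of all tested genes that fell was 1.76%.

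**Figure D4:**
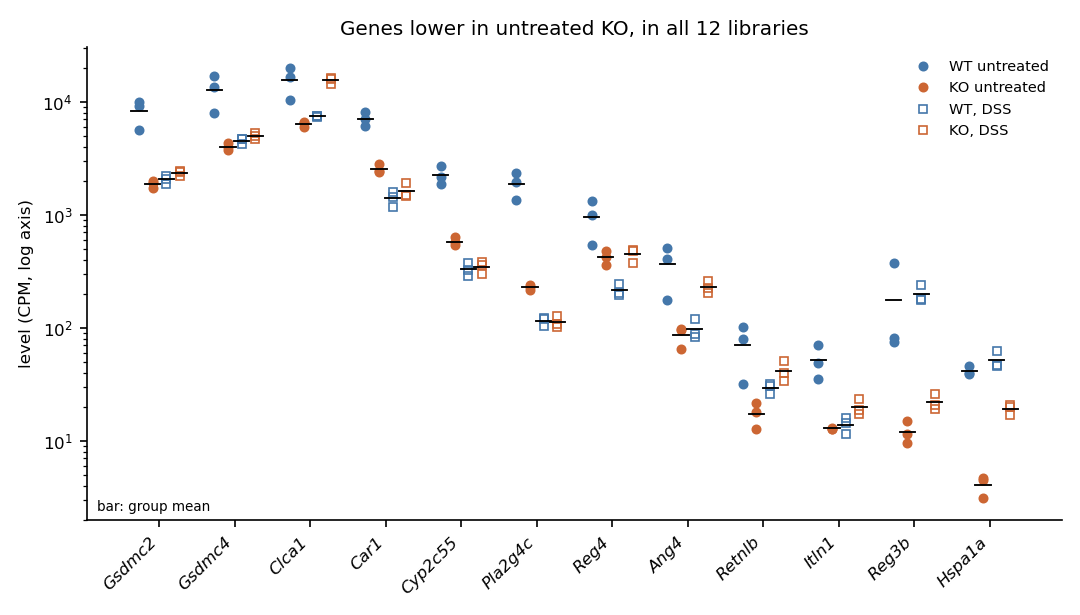
Levels of 12 genes that fell in untreated KO (CPM, log axis) in all 12 libraries, 1 point per library and a bar at each group mean: filled circles untreated, open squares under DSS, blue WT, orange KO. The untreated KO circles lie below the untreated WT circles in all 12 genes, and no gene that passed had overlapping groups.

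Absorptive colonocyte markers, all 16 tested, fell in 5 cases and rose in 2, against 1.76% and 1.72% of all tested genes. Car1, a carbonic anhydrase of colonocytes that shares 13.4% of its words with Gm5843, had 6994, 6062 and 8149 CPM in WT and 2403, 2809 and 2444 CPM in KO (-1.47, SE 0.13, adjusted p = 1.79e-05). Cyp2c55, a cytochrome P450 of the colon, fell from 2686, 2169 and 1879 to 631, 570.5 and 539 CPM (-1.95, SE 0.14, adjusted p = 2.66e-06). Mall, Tmigd1 and Ceacam20, membrane proteins of mature colonocytes, had differences of -0.60, -0.72 and -0.48 (adjusted p = 0.00511, 0.0237 and 0.0295). Car4, another colonocyte carbonic anhydrase, rose from 643, 641 and 380.3 to 875, 922 and 870.1 CPM (0.68, SE 0.16, adjusted p = 0.0346). Of the 12 markers shared by colonic epithelial cells 0 passed in edgeR's test, 4 having an unadjusted p under 0.05, and without WT 3, 7 passed as lower. Epcam, the epithelial surface protein used in the purity check, had 15467 to 23708 counts per library. Cdx2, an intestinal identity factor, had the smallest p of the 12 (-0.51, adjusted p = 0.0615) and passed without WT 3 (-0.66, adjusted p = 0.00367). Without 1 library, the adjusted p rose past the limit for Ceacam20 without WT 1, WT 2, KO 1, KO 2 or KO 3 (up to 0.137), Tmigd1 without WT 1, WT 2, KO 1, KO 2 or KO 3 (up to 0.128), Car4 without KO 1, KO 2 or KO 3 (up to 0.11). Higher and lower colonocyte markers numbered 1 and 9 without WT 3 and 0 and 4 in the untreated fit.

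Carbonic anhydrases and aquaporins moved in both directions, 2 higher and 3 lower among 12 tested of 18. Of all tested genes 1.72% were higher and 1.76% lower. Car2, the cytosolic form, rose from 1568, 1322 and 1214 to 2016, 2045 and 1905 CPM (0.54, SE 0.09, adjusted p = 0.00362). Car12, a form at the cell surface, fell from 136, 134 and 154 to 62.3, 67.9 and 68.4 CPM (-1.09, SE 0.19, adjusted p = 0.00386), and Car8 had a difference of -1.0 (adjusted p = 0.0202). Among 33 tested ion transport genes 4 rose and 1 fell. Atp12a, the colonic proton-potassium pump, rose from 484, 416 and 271 to 869, 859.5 and 821 CPM (1.12, SE 0.16, adjusted p = 0.00106). Slc26a2, a sulfate transporter, rose from 1074, 1099.6 and 978 to 1544, 1587 and 1424 CPM (0.53, SE 0.09, adjusted p = 0.00347). Kcnn4, a potassium channel, and Hsd11b2, which shields the mineralocorticoid receptor from glucocorticoids, had differences of 0.63 and 0.62, and the anion exchanger Slc4a2 of -0.63. Some calls hung on single libraries, with the highest adjusted p in brackets: Car8 without WT 1, KO 1 or KO 2 (up to 0.0926), Kcnn4 without WT 1, WT 2, KO 1, KO 2 or KO 3 (up to 0.189), Hsd11b2 without any 1 library (up to 0.173), Slc4a2 without WT 2 or KO 2 (up to 0.0813). Without WT 3 the higher and lower genes were 2 and 5 among carbonic anhydrases and aquaporins and 3 and 4 among ion transport genes, and in the untreated fit 0 and 2 and 2 and 0.

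Genes of the apical surface and of adhesion fell in small numbers, while 1.76% of all tested genes fell. Brush border genes gave 3 decreases among 27 tested, with a median of -0.27: Myo1d, a membrane-linked myosin (-0.49), Cdhr2, a cadherin that links microvilli (-0.51), and Tmigd1. Muc3 and Muc3a, mucins anchored in the membrane, had differences of -0.44 and -0.78, and the other 4 tested transmembrane mucins did not pass. Among 18 tight junction genes Cldn15, a claudin that forms sodium pores, passed (-0.53, adjusted p = 0.0491). Among 22 genes of matrix and integrins Fn1, fibronectin, fell from 56.6, 53.6 and 61 to 16.4, 3.3 and 8.44 CPM (-2.61, SE 0.44, adjusted p = 0.00385), and Itga6, an integrin of the basal side, by 0.67 (adjusted p = 0.0175). Prom1, an apical membrane protein listed with stem cell markers, fell from 490.0, 402 and 421 to 235, 279 and 229 CPM (-0.82, SE 0.13, adjusted p = 0.00269). Cd55, which protects cells from complement, fell from 115, 94.3 and 114 to 52.4, 55.4 and 55.2 CPM (-0.99, SE 0.16, adjusted p = 0.00324). Calls were lost, by adjusted p, for Myo1d without KO 3 (0.0539), Cdhr2 without WT 2, KO 1 or KO 3 (up to 0.0765), Muc3 without WT 2, KO 2 or KO 3 (up to 0.0866), Muc3a without WT 2, WT 3, KO 1, KO 2 or KO 3 (up to 0.151), Cldn15 without WT 1, WT 2, KO 1, KO 2 or KO 3 (up to 0.173), Itga6 without WT 2, KO 2 or KO 3 (up to 0.0811). Without WT 3, 8 brush border genes fell, 1 transmembrane mucin fell, and tight junction genes gave 1 increase and 1 decrease. In the untreated fit the decreases were 1, 0 and 0.

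Enzymes that build mucin sugar chains rose in 6 and fell in 3 of 32 tested cases, St6galnac1 among them. The shares over all tested genes were 1.72% and 1.76%. B3gnt7, which extends the chains, rose from 279, 246 and 296 to 518, 547 and 515 CPM (0.94, SE 0.09, adjusted p = 2.43e-05). Gcnt1, which makes the core branch, rose from 20.7, 15.4 and 14.4 to 60.4, 44.4 and 41.6 CPM (1.53, SE 0.23, adjusted p = 0.00189). Fut4, a fucosyltransferase, rose from 126, 125 and 179 to 249, 247 and 243 CPM (0.78, SE 0.13, adjusted p = 0.0036). B4galnt2, which makes the Sda blood group sugar, fell from 353, 333 and 298 to 172, 182 and 173 CPM (-0.90, SE 0.10, adjusted p = 8.04e-05). Separate enzymes of the same pathway thus differed in opposite directions, and the median of the list was -0.048. Without WT 3, 5 rose and 5 fell with a median of -0.19, and in the untreated fit 4 rose and 1 fell.

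Lipid and xenobiotic metabolism held more decreases than increases. Fatty acid oxidation and ketogenesis gave 5 decreases and 1 increase among 33 tested genes, and synthesis of cholesterol and fatty acids 6 and 1 among 36. Of all tested genes 1.76% fell and 1.72% rose. Pparg, a nuclear receptor for fatty acids that is abundant in colonocytes, fell from 157, 178 and 176 to 107, 95.8 and 113 CPM (-0.69, SE 0.13, adjusted p = 0.00831). Each KO library was below each WT library, as for every lower gene that passed. Cpt1a, which admits fatty acids to mitochondria, had a difference of -0.52. Me1, Elovl6 and Insig1 of the synthesis list had differences of -1.48, -1.11 and -0.58, and Acly, which makes cytosolic acetyl-CoA, rose by 0.63. Slc27a2, a fatty acid transporter, rose from 7, 3.77 and 6.8 to 19.7, 24 and 26 CPM (1.98, SE 0.32, adjusted p = 0.00284). Me1 shares 22.9% of its words with pseudogenes. Without 1 library, the adjusted p rose past the limit for Pparg without KO 2 (0.0524), Cpt1a without WT 1, WT 2, KO 1 or KO 3 (up to 0.137), Elovl6 without KO 1 (0.0541), Insig1 without KO 1 or KO 3 (up to 0.089), Acly without KO 1 (0.0759). The higher and lower genes were 1 and 8 for oxidation and 1 and 7 for synthesis without WT 3, and 1 and 2 and 0 and 2 in the untreated fit.

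Of 39 tested genes of drug metabolism 4 fell and 2 rose, against 1.76% and 1.72% of all tested genes. Adh1, an alcohol and retinol dehydrogenase, rose from 794, 741 and 955 to 2073, 2253 and 2126 CPM (1.37, SE 0.10, adjusted p = 2.66e-06). Cyp2c65 fell from 319.6, 269 and 341 to 119, 121 and 115 CPM (-1.39, SE 0.14, adjusted p = 4.95e-05), while its relative Cyp2c68 rose from 157, 109 and 96.3 to 248, 238 and 204 CPM (0.93, SE 0.15, adjusted p = 0.00313). Ugt2b5, a glucuronosyltransferase, fell by 1.18 (SE 0.21, adjusted p = 0.00543). The cytochrome and Ugt2b genes share 20.6% to 43.3% of their words with close copies, apart from Cyp2c55. Gstm1, a glutathione transferase that shares 18.9% of its words with related copies, rose from 208, 178 and 185 to 385, 464 and 432 CPM (1.16, SE 0.11, adjusted p = 3.09e-05). Other antioxidant genes that passed were Gsta3 (1.0), Prdx6 (0.55) and Nfe2l2, the regulator of antioxidant genes (-0.48). Among 21 phospholipase and eicosanoid genes 4 fell, Pla2g4c, Pnliprp2, Pla2g2a and Pla2g3 (-0.75), and Pla2g4a rose (0.45). Maob, listed with tryptophan metabolism, rose by 0.77 beside Ido1. Some calls hung on single libraries, with the highest adjusted p in brackets: Gsta3 without WT 2, KO 2 or KO 3 (up to 0.0892), Prdx6 without KO 1, KO 2 or KO 3 (up to 0.0977), Nfe2l2 without KO 1 or KO 3 (up to 0.061), Pla2g3 without WT 1, WT 2, KO 1 or KO 3 (up to 0.128), Pla2g4a without any 1 library (up to 0.151), Maob without WT 2, KO 1, KO 2 or KO 3 (up to 0.111). Drug metabolism genes gave 3 and 8 higher and lower genes without WT 3 and 2 and 3 in the untreated fit, and phospholipase and eicosanoid genes gave 0 and 4 and 0 and 3. In the untreated fit antioxidant genes gave 1 and 0, and genes of tryptophan metabolism 0 and 0.

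Glycolysis gave 2 decreases and 1 increase among 24 tested genes, while 1.76% of all tested genes fell and 1.72% rose. Eno3, an enolase, rose from 243, 223 and 150.5 to 392, 407 and 365 CPM (0.92, SE 0.15, adjusted p = 0.00267), and Hkdc1, a hexokinase, and Aldoa, an aldolase, had differences of -1.25 and -0.37. Of 43 nuclear genes of the respiratory chain 0 passed in edgeR's test, with 0 at an unadjusted p under 0.05, and their median was -0.048. Atp5b, an ATP synthase subunit, had the smallest p (-0.16, adjusted p = 0.524). Nr1d1, the clock repressor REV-ERBα, rose from 31, 39.4 and 42.8 to 111, 92.2 and 112 CPM (1.48, SE 0.14, adjusted p = 2.07e-05), the 1 call among 14 clock genes, and it overlaps Thra. Among 43 solute carriers, Slc7a8, an amino acid exchanger, rose from 4.23, 6.23 and 6.49 to 21.1, 22.2 and 17 CPM (1.83, SE 0.33, adjusted p = 0.00581), and Slc1a1, a glutamate transporter, fell from 183, 141 and 138 to 90.2, 88.7 and 89 CPM (-0.79, SE 0.12, adjusted p = 0.00246). In all, 4 of the solute carriers rose and 3 fell. Calls were lost, by adjusted p, for Hkdc1 without KO 3 (0.0574), Aldoa without WT 1, WT 2, KO 1, KO 2 or KO 3 (up to 0.105). Without WT 3 the solute carriers had 5 increases and 7 decreases and glycolysis 1 and 4, and in the untreated fit the counts were 2 and 4, and 1 and 1.

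Transcription factors and injury genes gave few calls, while 3.48% of all tested genes passed. Isx, an intestinal factor that represses vitamin A uptake and conversion, fell from 63.1, 50.2 and 62.6 to 21, 22.7 and 20.3 CPM (-1.46, SE 0.20, adjusted p = 0.000649). Hoxb13, which marks the distal colon, rose from 253, 219 and 213 to 336, 349 and 360.4 CPM (0.61, SE 0.10, adjusted p = 0.00349), the 1 call among 12 posterior Hox genes, of which 4 rose without WT 3. Plet1, a surface protein of regenerating epithelium, fell from 86.3, 100.1 and 65.5 to 23.7, 22.9 and 25.8 CPM (-1.80, SE 0.16, adjusted p = 1.21e-05). Ccn1, a matrix protein induced in wounds, rose by 0.75 (SE 0.15, adjusted p = 0.0124). Lrg1, an acute-phase protein, fell from 4.37, 3.61 and 5.72 to 1.62, 1.46 and 1.19 CPM (-1.68, SE 0.25, adjusted p = 0.00149), and Steap4, a metalloreductase, rose from 11.5, 10 and 11.4 to 27.9, 27.5 and 18.5 CPM (1.16, SE 0.22, adjusted p = 0.00839). Cd14, the co-receptor for bacterial lipopolysaccharide, rose from 79, 70.4 and 65.2 to 110.0, 119 and 115 CPM (0.68, SE 0.11, adjusted p = 0.00216), and Tlr3, a receptor for double-stranded RNA, fell by 0.48 (adjusted p = 0.0438), the 2 calls among 28 receptors and adaptors. In edgeR's test 0 genes of the Notch pathway (11 tested), of the EGF receptor family (11) and of the TGF-beta and BMP pathways (18) passed, with 2, 5 and 4 at an unadjusted p under 0.05. The smallest p values were those of the Notch ligand Dll1 (0.60, adjusted p = 0.096), the EGF receptor ligand Hbegf (-0.34, adjusted p = 0.0747) and the BMP target Id3 (-0.44, adjusted p = 0.272). Without 1 library, the adjusted p rose past the limit for Ccn1 without KO 1 or KO 3 (up to 0.0613), Tlr3 without any 1 library (up to 0.18). Without WT 3, 1 gene of the EGF receptor family rose, 4 intestinal transcription factors fell (1 with all libraries), 2 receptors and adaptors rose and 0 fell, and 2 genes of wounds and regeneration fell.

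Immediate early and heat-shock genes answer many stimuli, cell isolation among them. Of 28 immediate early genes tested, Nr4a1, Junb, Dusp1 and Ccn1 rose, by 1.24, 0.38, 0.43 and 0.75, and Dusp6, a brake on ERK, fell by 0.60 (adjusted p = 0.00577). Of 26 tested genes of the response to tissue dissociation 3 rose and 1, Hspa1a, fell, and their sum was 7799 to 8776 CPM in WT and 8088 to 8122 CPM in KO. Hspa1a was the 1 call among 20 heat-shock chaperones. Herpud1, a gene of the unfolded protein response, rose from 132, 139.9 and 158 to 227, 206 and 217 CPM (0.60, SE 0.10, adjusted p = 0.00299), the 1 call among 25 genes of endoplasmic reticulum stress. Single calls in lists of these sizes are near the 3.48% of all tested genes that passed. Some calls hung on single libraries, with the highest adjusted p in brackets: Junb without KO 1 or KO 3 (up to 0.0752), Dusp1 without WT 1, WT 2, KO 1, KO 2 or KO 3 (up to 0.13), Ccn1 without KO 1 or KO 3 (up to 0.0613). Immediate early genes that rose or fell numbered 6 and 2 without WT 3 and 0 and 0 in the untreated fit, and dissociation genes 4 and 2 and 0 and 1.

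Enteroendocrine and tuft cell markers gave no calls with all 12 samples in the fit. Of 14 tested enteroendocrine markers 13 had positive differences and 0 passed in edgeR's test (5 at an unadjusted p under 0.05), with sums of 226 to 285 CPM in WT and 310.3 to 338 CPM in KO. Rfx6, a factor of that lineage, had the smallest p, with 0, 0.328 and 0 CPM in WT and 1.48, 2.08 and 1.54 CPM in KO (adjusted p = 0.162). Of 15 tested tuft cell markers 12 had negative differences, the median was -0.96 and 0 passed (7 at an unadjusted p under 0.05). Alox5, the enzyme that starts leukotriene synthesis, had 7.72, 8.04 and 4.64 CPM in WT and 1.75, 1.46 and 1.31 CPM in KO (-2.16, adjusted p = 0.0957) and was the 1 tuft cell marker to pass in the untreated fit (-2.15, adjusted p = 0.0448). Of 19 stem cell and Wnt markers 1 rose and 2 fell: Tcf7, also a T cell factor, from 0.437, 0 and 0.155 to 3.23, 2.81 and 2.73 CPM, Prom1, and Ccnd1, a cyclin (-0.51). Of 30 proliferation markers 24 had positive differences, and Cdc20, an activator of the mitotic ubiquitin ligase, passed (0.53, adjusted p = 0.0313). That 1 call in 30 is near the 3.48% of all tested genes that passed. Without WT 3, 8 of the 30 passed, all higher, and in the untreated fit 0. The higher and lower stem cell and Wnt markers were 5 and 2 without WT 3 and 1 and 1 in the untreated fit. Without WT 1 the difference of Tcf7 was 4.92. Among other lists, Vim rose by 1.34 (without WT 3, 0 of the fibroblast markers rose and 1 fell), Alpi, a brush border phosphatase of the small intestine, fell by 1.19, and Ly6c2 was at 0 counts in the WT libraries and at least 2.92-fold higher in KO. Endothelial, smooth muscle and mast cell markers gave 0 calls in edgeR's test, with 0 at an unadjusted p under 0.05, and their smallest p values were those of Lyve1 (-0.50, adjusted p = 0.632), Tagln (-0.49, adjusted p = 0.454) and Cma1 (1.16, adjusted p = 0.359). Ly6c2 shares 14.4% of its words with other genes and Cdc20 10.4%. The sums of the 20 marker lists are set side by side in the plot of cell type markers. The sums of the 2 genotypes did not overlap for leukocyte, T cell, B and plasma cell and enteroendocrine markers, all higher in KO. The B and plasma cell sum was 1263 to 1729 CPM in WT and 2241 to 2330 CPM in KO. Most of it was the class II gene Cd74, at 1210 to 1720 and 2220 to 2300 CPM. Of the 5 tested markers of that list 3 had negative differences, with a median of -1.01. The sums also did not overlap for colonocyte, goblet cell, stem cell and Wnt, small intestine and smooth muscle markers, all lower in KO. Yet 14 of the 19 tested stem cell and Wnt markers had positive differences, with a median of 0.23. Their sum was 932 to 1241 CPM in WT and 881 to 928 CPM in KO. It includes Prom1, which fell from 490, 402 and 421 to 235, 279 and 229 CPM. Single genes did not overlap in 19.3% of all tested cases. Calls were lost, by adjusted p, for Ccnd1 without WT 2, KO 1, KO 2 or KO 3 (up to 0.138), Cdc20 without WT 1, WT 2, KO 1, KO 2 or KO 3 (up to 0.143), Vim without WT 1, WT 3, KO 1, KO 2 or KO 3 (up to 0.13), Alpi without WT 1, WT 2, KO 1, KO 2 or KO 3 (up to 0.103), Ly6c2 without WT 1, WT 2, KO 1, KO 2 or KO 3 (up to 0.0776).

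**Figure D5:**
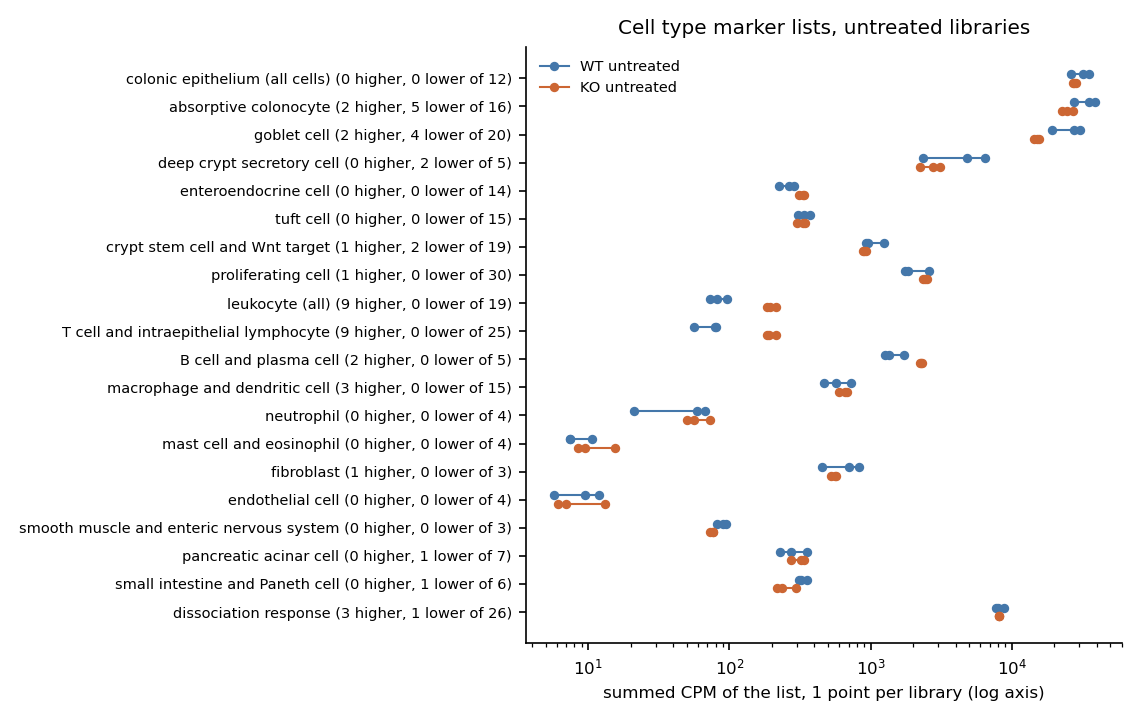
Summed level of each of the 20 marker lists in the 6 untreated libraries (CPM, log axis), 1 point per library, blue WT and orange KO. The numbers give the tested genes of the list that were higher or lower in KO; leukocyte sums were 72.5 to 96.9 CPM in WT and 184 to 214 CPM in KO.

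The same genotype comparison under DSS, in the other 6 samples, passed 390 genes (3.11%). Of the 436 genes of the untreated comparison 112 also passed there, which is 25.7% of the untreated and 28.7% of the DSS calls. Of these, 55 were higher in KO in both, 31 lower in both, 3 higher untreated but lower under DSS, and 23 lower untreated but higher under DSS. The interaction, the genotype difference under DSS minus that in the untreated samples, passed for 213 genes (1.70%). Tnf, higher in untreated KO, was lower in KO under DSS, at 9.02, 9.79 and 12.3 CPM against 31.3, 30.4 and 32.1 CPM in WT (interaction -3.64, adjusted p = 5.54e-05). Irf7, lower in untreated KO, was higher in KO under DSS, at 776, 726 and 700.0 CPM against 410.0, 405 and 377 CPM (interaction 1.45, adjusted p = 1.95e-05). Nfkb2 had a difference of -1.28 under DSS (adjusted p = 0.00224), and its interaction did not pass.

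By the naming rule, the 4 genes in each direction with the smallest interaction p among those with a mean of at least 3 log2 CPM were Pla2g4c, Slfn4, Cmpk2 and Irf7, with positive, and Ido1, Nfkbia, Muc1 and Clca4b, with negative values. Pla2g4c had 120.0, 103 and 121 CPM in WT and 109, 126 and 102 CPM in KO under DSS, beside 241, 228 and 215 CPM in untreated KO and 2339.9, 1959.6 and 1339 CPM in untreated WT. Slfn4, an interferon-inducible gene of the Schlafen family, was lower in untreated KO (-0.77, adjusted p = 0.000997) and higher in KO under DSS (1.33). Cmpk2, a mitochondrial nucleotide kinase induced by interferon, had differences of -0.40 (adjusted p = 0.0511) and 1.41. Muc1 and Clca4b did not differ beyond the threshold in untreated samples (adjusted p = 0.535 and 0.652), but Clca4b passed without WT 3 (-0.46, adjusted p = 0.00936). Under DSS, Muc1, a membrane mucin, had 87, 109 and 104 CPM in WT and 12.7, 16.2 and 12.6 CPM in KO.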

How the data were processed

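SMART-seq2 libraries of 12 samples were read, 3 in each of 4 groups, and the 6 untreated ones are described. The values are whole-number counts per gene as deposited by the authors, not normalized. The submitters' processing notes name STAR 2.5.2b, featureCounts 1.5.0 and the builds GRCm38 and mm10. The annotation release and strand setting are not given in the sources used here. Of 46517 gene IDs in each table, 46005 matched GENCODE's GRCm38 annotation, and positions and exon overlaps come from it.

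Counts were tested with edgeR 4.0.16 in R 4.3.3: filterByExpr, TMM scaling, 1 coefficient per group over all 12 samples, and the quasi-likelihood F test (8 residual degrees of freedom) with Benjamini-Hochberg adjustment over the 12522 genes kept, which held 99.8% of the counts. The scripts were tested on simulated data. DESeq2 1.42.0, other filters and scalings, a replicate block, a leukocyte marker covariate (their mean log2 CPM per library) and the omission of each library were tried. Log2 CPM used a prior count of 2.

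The members and the 64 gene and marker lists were chosen with earlier results of these data known. Named genes were the NF-kB subunits, the genes with the largest changes at a mean of at least 3 log2 CPM (up to 12 in each direction, no predicted Gm or Rik symbols), up to 5 genes per list with the smallest p (where none passed, the 1 with the smallest p), the 3 nearest tested genes on each side of Nfkb2, and up to 4 genes in each direction of the interaction with the smallest p at that level. Some genes that this rule names are not reported here. Sharing is the percent of a gene's 50-base words that occur in other genes. Exon overlaps also touch Irf7, H2-DMa, Cyp2c55, Atp12a, Slc4a2, Coro1a, Cd7, Cd3e, Prom1, Ccnd1, Cdc20, Junb, Dusp1, Pla2g3, Adh1, Me1, Elovl6, Aldoa, Slc30a10, Slc1a1, Slc51a, Fn1, B3gnt7, B4galnt2, Plet1, Tlr3, Cd55 and Cttnbp2. Each total gives counting precision only.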

Additional observations from a re-analysis of the deposited data

Results flagged for a closer look

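For 65 of the 171 genes named here the genotype difference under DSS differed from that in untreated samples. The measure was the interaction term of edgeR's quasi-likelihood test (adjusted p under 0.05), which passed for 1.70% of all tested genes. Many named genes were chosen by their untreated difference or interaction p. The share among them is therefore raised by the choice and cannot be set against that of all genes. The values are log2, the KO minus WT difference under DSS minus that in untreated samples. Among genes of the NF-kB lists and other inflammatory genes the interaction was negative for Nfkbia (-1.33), Tnf (-3.64), Ccl20 (-2.56), Cxcl1 (-2.75), Nos2 (-1.77), Icam1 (-2.02), Nox1 (-1.75), Ubd (-1.90), Gbp2 (-0.84), Ido1 (-3.54), Cd14 (-1.05) and Lrg1 (-3.27). Among interferon-stimulated genes it was positive for Irf7 (1.45), Oas1g (0.99), Mx2 (2.58), Oas3 (1.40), Ifi44 (1.67), Zbp1 (0.68), Slfn4 (2.09) and Cmpk2 (1.82). The class II genes had values below 0, namely H2-DMa (-0.93), H2-Ab1 (-0.84), H2-Aa (-0.96) and H2-Eb1 (-0.95).

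Among antimicrobial, goblet cell and gasdermin genes the interaction was positive for Itln1 (2.52), Ang4 (3.33), Retnlb (2.52), Reg4 (2.25), Clca1 (2.34), Muc2 (0.84), Muc3 (0.55), Gsdmc2 (2.32), Gsdmc3 (1.44), Gsdmc4 (1.81) and Gsdmcl-ps (2.96). It was negative for the mucin and channel genes Muc1 (-2.51), Clca4b (-2.0) and Best2 (-1.38) and for the glycosylation enzymes B3gnt7 (-0.59), Gcnt1 (-1.59) and Fut4 (-0.86). Colonocyte, transport and metabolic genes had positive values in Cyp2c55 (2.03), Cyp2c65 (1.10), Car1 (1.69), Car12 (1.52), Tmigd1 (1.73), Alpi (1.89), Pla2g4c (3.02), Pnliprp2 (2.93) and Slc1a1 (0.94) and negative ones in Atp12a (-1.22), Adh1 (-0.79), Slc37a2 (-1.09) and Prdx6 (-0.93).

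Among the remaining genes the interaction was positive for Prom1 (0.82), Hspa1a (1.91), Nfe2l2 (0.55) and Fn1 (3.64) and negative for Ccnd1 (-0.83), Ccn1 (-1.68), Pmaip1 (-1.07), Nr1d1 (-1.0), Plet1 (-1.18), Hoxb13 (-0.64) and Fbxo32 (-0.78). The untreated difference and the interaction share the untreated samples, so a negative untreated difference and a positive interaction are not independent.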

How the results depend on the processing

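The count of 436 genes that passed between untreated KO and WT was 195 in a fit to the 6 untreated samples alone (186 of them among the 436), 790 by DESeq2's Wald test, 703 without a low-count filter and 75 with the leukocyte marker covariate. It ranged from 212 without KO 3 to 725 without WT 3. The count under DSS (390) was 661, 642 and 67 by DESeq2, without a filter and with the covariate, and 160 to 231 with 1 library left out. The count for the interaction (213) was 360 by DESeq2, 356 without a filter and 152 to 350 with 1 library left out. The difference of Nfkb2 kept its direction and passed in all alternatives but the covariate, where it was -0.657. The cause of these shifts was not tested.

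With the covariate, whose values do not overlap between the genotypes, the log2 fold change had the opposite sign for Rela -1.54, Cuedc2 1.003, Tnip1 -0.403, Cxcl9 -0.217, Reg3b 0.613, Car4 -0.351, Atp12a -0.026, Hsd11b2 -0.474, Coro1a -0.197, Cd53 -0.701, Itgb2 -0.718, Laptm5 -0.738, Lyz2 -0.609, Prdx6 -0.284, Eno3 -0.028, Slc30a10 0.371, Slc51a 0.388, Tagap -0.665, Maob -0.484, Ly6g -2.26, Lyve1 0.954 and Birc3 -0.04. None of these 22 reversed values passed. Coro1a, Cd53, Itgb2 and Laptm5 are among the markers averaged into the covariate, so the loss of their differences under it follows from how it was built. With 1 library left out, the sign changed within the range for Rela (-0.156 to 0.279), Rel (-0.212 to 0.762), Nolc1 (-0.075 to 0.331), Cuedc2 (-0.34 to 0.056) and Ly6g (-0.06 to 0.598), none of which had passed. The same-numbered samples of the genotypes did not deviate together (correlations -0.175 to -0.053, 0 samples correlating best with their own number). With 3 samples per group, deviations from the group mean balance out, so these correlations cannot settle whether the numbers pair the samples. A replicate block gave 345 genes, 338 of them among the 436, and 290 and 186 for the other contrasts. Depth limits low genes: 3 counts correspond to 0.37 to 0.474 CPM.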
